A study of Arabidopsis thaliana with 4 samples.

Results

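The genes described here are the photosynthesis-related genes that the authors collected on a sheet of their deposited workbooks. All 108 gene identifiers of that column were taken, and neither of 2 identifiers set aside in advance was among them. Of the 108 genes, 83 were listed as changed in at least 1 comparison of libraries, out of 11508 such genes in the whole study. RNA sequencing had been performed on calli, masses of dividing plant cells grown in culture, of wild-type Arabidopsis thaliana, ecotype Col-0. All calli came from roots of 30-day-old plants. They had been raised with 0.5 mg/L of the synthetic auxin 2,4-D and subcultured every 3 weeks. The 4 groups were calli on Murashige and Skoog (MS) medium with both 100 mM NaCl and 2,4-D at that same dose, with 100 mM NaCl alone, with 2,4-D alone, and on MS medium labelled untreated. Culture on the treatment media lasted 4 weeks. Each group had 1 sample, made from pooled RNA, so no difference below has a replicate check and no test was made.

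The values are the authors' log2 fold changes between 4 libraries, coded 1A to 4A. Because the sample labels carry none of these codes, comparisons are named by code and no library is assigned to a group. Each of the 6 deposited tables held only genes past both limits of the authors, a log2 fold of 1 or more in either direction and an FDR (a p-value corrected for many genes) below 0.001. A gene that is absent from a table is called not listed, which does not show that it was equal in both libraries. Within any set of 3 libraries, the folds of the 11 to 16 members listed in every pair added up within 1e-09. Missing folds could therefore be completed as the sum or difference of 2 listed ones, which placed 63 members on a common scale over all 4 libraries. Every fold below is a log2 fold change. The level of a gene relative to 1A is its fold over 1A, as listed by the authors or completed, and the 3A levels of genes not listed in 3A over 1A are completed. Sequencing depth could not be read from the columns used, so the limit that counting error sets is unknown.

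In a chloroplast, light is absorbed by chlorophyll bound to antenna proteins of the LHC family. The LHCA proteins serve photosystem I and the LHCB proteins serve photosystem II. Photosystem II splits water, and its electrons pass through plastoquinone, the cytochrome b6f complex and plastocyanin to photosystem I. From there ferredoxin and ferredoxin-NADP reductase make NADPH. Together with ATP this drives carbon fixation by Rubisco and the Calvin cycle. Most antenna proteins, many smaller photosystem subunits and the small subunit of Rubisco are encoded in the nucleus, while the reaction centre proteins and the large subunit of Rubisco are encoded in the plastid. Roots normally hold unpigmented plastids, but calli from roots can green in light. All 108 members were nuclear genes, and none of the 129 plastid-encoded genes of the reference table was listed in any comparison. Whether plastid transcripts were captured and counted is not stated in the sources used. Their absence therefore does not show that they were equal between libraries.

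Upstream sequences are shown for the member with the lowest fold of 4A over 3A in each antenna and photosystem class and in carbon fixation, and for FBP, which had the highest such fold of all eligible members. Only members with a fold that was not a whole number and a window that holds no other gene were eligible, and the choice was made after the folds were seen. Each window is the 250 bases before the annotated gene start, written 5′ to 3′ on the gene's own strand from the RefSeq TAIR10.1 genome. Capitals mark 4 short motifs on either strand: CACGTG (the G-box, bound by bZIP and bHLH factors), GATAAG (the core of the I-box of light-responsive promoters), CCAAT and TATAAA. No motifs overlapped within the windows shown.
LHCA2, chr3:22745264-22745513, plus strand: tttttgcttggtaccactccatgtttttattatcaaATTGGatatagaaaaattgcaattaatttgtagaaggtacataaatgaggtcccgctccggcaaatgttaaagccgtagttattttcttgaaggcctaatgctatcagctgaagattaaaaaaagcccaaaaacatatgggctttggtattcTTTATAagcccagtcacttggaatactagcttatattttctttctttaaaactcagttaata
LHCB2.2, chr2:1800473-1800722, minus strand: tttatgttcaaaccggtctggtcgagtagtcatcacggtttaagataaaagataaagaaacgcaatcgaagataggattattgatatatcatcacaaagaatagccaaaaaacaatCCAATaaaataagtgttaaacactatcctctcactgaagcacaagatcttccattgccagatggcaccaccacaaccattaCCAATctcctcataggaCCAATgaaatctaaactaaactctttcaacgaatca
PSAK, chr1:10721933-10722182, plus strand: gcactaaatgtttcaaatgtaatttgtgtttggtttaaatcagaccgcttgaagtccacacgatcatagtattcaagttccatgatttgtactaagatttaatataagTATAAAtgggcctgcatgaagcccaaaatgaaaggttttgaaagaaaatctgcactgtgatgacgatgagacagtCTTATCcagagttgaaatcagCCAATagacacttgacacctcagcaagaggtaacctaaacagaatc
PSBQ-2, chr4:2673244-2673493, minus strand: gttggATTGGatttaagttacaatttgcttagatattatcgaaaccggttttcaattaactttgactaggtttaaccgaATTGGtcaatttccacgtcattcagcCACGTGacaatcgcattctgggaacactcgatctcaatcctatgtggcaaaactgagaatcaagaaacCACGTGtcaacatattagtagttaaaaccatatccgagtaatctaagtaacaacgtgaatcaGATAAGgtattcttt
RBCS3B, chr5:15378643-15378892, minus strand: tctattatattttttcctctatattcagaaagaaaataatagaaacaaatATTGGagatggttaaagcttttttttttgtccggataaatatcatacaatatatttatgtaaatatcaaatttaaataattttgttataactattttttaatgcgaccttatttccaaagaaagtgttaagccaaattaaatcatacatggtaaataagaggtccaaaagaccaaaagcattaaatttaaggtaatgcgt
FBP, chr1:16467048-16467297, plus strand: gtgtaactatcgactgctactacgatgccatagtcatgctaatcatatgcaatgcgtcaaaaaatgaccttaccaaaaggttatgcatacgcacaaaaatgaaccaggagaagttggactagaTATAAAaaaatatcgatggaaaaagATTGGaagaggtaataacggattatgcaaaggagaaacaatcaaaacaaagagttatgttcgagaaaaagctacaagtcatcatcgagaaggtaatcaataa

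These windows differ in what they hold. The PSBQ-2 window had 2 G-boxes, starting at positions -145 and -77 relative to the gene start, and 1 I-box core. The LHCB2.2 window had 3 CCAAT motifs and none of the other motifs searched, and the RBCS3B window had 1 CCAAT motif only. The window of RBCS2B, which shares 96.9% of aligned coding bases with RBCS3B, held 1 G-box and 3 I-box cores. Windows end at the annotated gene start, so motifs inside an annotated gene or farther upstream are not seen. Over the 39 antenna and photosystem members, 11 windows held a G-box, which is 28.2%, against 12.5% of 64 other members with a window and 6.49% of 27443 nuclear protein-coding genes. The I-box core was found in 25.6% of antenna and photosystem windows, 15.6% of the other members' windows and 12.3% of all. The CCAAT motif was found in 71.8% of antenna and photosystem windows, in 50% of the other members' windows and in 46.0% of all windows. TATAAA was found in 43.6% of antenna and photosystem windows, in 39.1% of the other members' windows and in 47.3% of all windows. Among the 11 antenna and photosystem genes with a G-box were LHCA4, LHCB4.1, LHCB6, PSAE-2, PSAH2, PSBQA and PSB28. A match to these letters is a description of the window and does not show that a factor binds there.

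Across the list, the members were far lower in 2A than in 1A and in 4A than in 3A. In 2A, 65 members were listed lower than in 1A and 3 higher, beside 24.5% of all 11508 genes listed lower and 28.8% listed higher. In 4A, 68 members were listed lower than in 3A and 2 higher, beside 35.6% lower and 19.6% higher among all genes. Shares of all genes, here and below, are out of the 11508 genes listed in at least 1 comparison. The 108 members instead include 25 that were never listed. The listed members' median log2 fold, computed from the authors' deposited tables, was -3.94 for 2A over 1A and -3.77 for 4A over 3A. The medians of all listed genes in the authors' deposited tables were 1.09 for 2A over 1A and -1.43 for 4A over 3A. Here and below, medians of listed folds leave out every fold between -1 and 1. Where lower and higher genes are near balance, the sign and size of such a median come largely from that gap. It then shows no shift of genes in general. These 2 comparisons share no library. Of the 61 members listed in both, 60 were lower in both, 1 was higher in both and none changed sign. The matching count over all genes was not made, so this cannot be set beside genes in general.

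The other pairs of libraries gave the same grouping. In 4A, 65 members were listed lower than in 1A and 3 higher (all genes 32.9% and 32.5%), and the members' median was -4.56 against -1.01 for all genes in the authors' deposited table. Without whole-number folds that all-gene median was 1.00, so neither its sign nor its size is a shift of genes in general. In 3A, 66 members were listed higher than in 2A and none lower (all genes 27.8% and 19.7%), with a median of 3.58 against 1.17 for all genes in the authors' deposited table. Between 3A and 1A, only 11 members were listed lower in 3A and 4 higher (all genes 11.1% and 21.3%), with a median of -1.14 against 1.33 for all genes in the authors' deposited table. Between 4A and 2A, 15 were listed lower in 4A and 6 higher (all genes 21.2% and 8.48%), with a median of -1.24 against -1.44 for all genes in the authors' deposited table. The members thus lay high in 1A and 3A and low in 2A and 4A, and 45 of the 63 with a level in all 4 libraries had their lowest level in 4A. That is 71.4% of these members, against 39.2% of the 6653 genes of the whole study with such levels. These shares are not alike, because members low in both 2A and 4A have their lowest level in 2A or 4A. Some 4A over 2A folds behind the count were small completed ones, such as -0.06 for PSBX from the authors' deposited tables. Of the 108 members, 13.9% were listed lower in 4A than in 2A, against 21.2% of all genes. Genes in general were also listed more often lower than higher in 4A than in 2A, 2444 against 976. Each of these 6 comparisons shares a library with others, so they are not separate pieces of support.

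**Figure D1:**
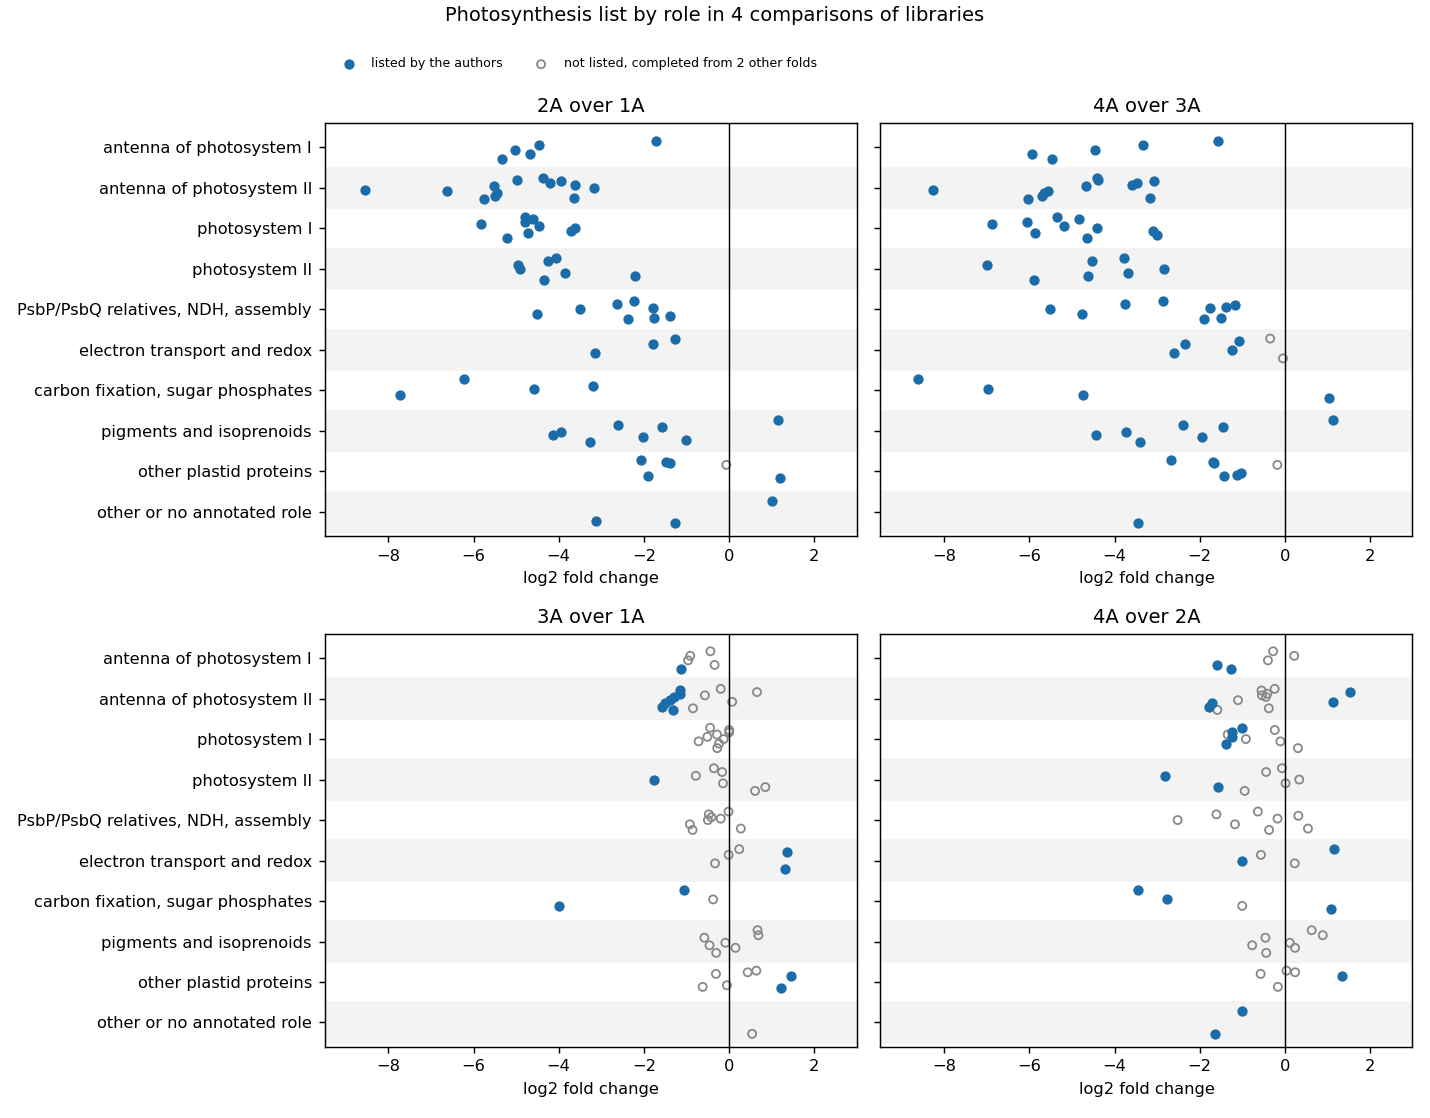
Log2 fold changes of the members (x axis) by role class (y axis) in 4 comparisons of libraries, where filled points are folds the authors listed and open points are folds completed from 2 others. Members with a whole-number fold are drawn only where their own fold is not one, and the antenna and photosystem rows lie left of -1.5 in the upper panels and mostly between -2 and 1 in the lower panels.

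In all, 8 members had at least 1 fold that was an exact whole number within a relative tolerance of 1e-09. Such folds are what division by a smallest possible value gives, so their size depends on that value. The only such fold printed is a median, which is named as such there. These members were PSAD-2, AT1G49975, LHCA6, CRR1, SEPALLATA2, LHCB1.4, LHCB2.3 and RBCS1B. The direction of their listing is kept in the counts. Without those folds the members' median from the authors' deposited tables was -3.85 for 2A over 1A and -3.69 for 4A over 3A. Other large folds, such as those of GPT2, RBCS3B and LHCB2.2, may also rest on very small values in 2A or 4A. The columns used do not show this, so the sizes of such folds are uncertain.

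The antenna of photosystem I is formed by LHCA1 to LHCA4, with LHCA5 and LHCA6 as minor members that help link photosystem I to the NDH complex. All 5 listed LHCA genes were lower in 2A than in 1A (all genes 24.5%), with log2 folds from -5.33 for LHCA1 to -1.72 for LHCA5 in the authors' deposited table. The 4A over 3A folds of the same genes ran from -5.94 for LHCA2 to -1.56 for LHCA5 in the authors' deposited table. LHCA5 thus had the smallest fold of these genes in both comparisons. LHCA6 was listed lower in 4A than in 3A and higher in 3A than in 2A, in each case with a whole-number fold, and was not listed in 2A over 1A. LHCA1 and LHCA2 were also listed lower in 4A than in 2A, at -1.26 and -1.60 in the authors' deposited table.

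The antenna of photosystem II is made of the trimer proteins LHCB1 to LHCB3 and the single proteins LHCB4 to LHCB6, which connect the trimers to the core. Of 15 LHCB members, 13 were listed lower in 2A than in 1A, with a median of -4.98 from the authors' deposited table, and 13 lower in 4A than in 3A, with a median of -4.67. Among all genes the shares listed lower were 24.5% and 35.6%. LHCB2.2 had the lowest folds of the class in 4A and 2A over 1A. Its levels relative to 1A were -9.65 in 4A, -1.39 in 3A and -8.55 in 2A in the authors' deposited tables. LHCB1.3 lay at -7.27 in 4A, -1.57 in 3A and -5.50 in 2A relative to 1A, and LHCB1.5 at -7.16, -1.49 and -5.45 in the same libraries, as the authors' deposited tables gave them. Both were listed in all 6 comparisons. LHCB3 lay at -5.97 in 4A, -1.30 in 3A and -5.53 in 2A, and LHCB5 at -5.53 in 4A, -1.14 in 3A and -4.98 in 2A, each relative to 1A, from the authors' deposited tables. For all of these, 4A and 2A were the low libraries, and 3A lay between them and 1A.

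A few antenna genes departed from that order. LHCB2.1 lay at -5.49 in 4A, 0.08 in 3A (a completed value) and -6.63 in 2A relative to 1A, and the authors' deposited table listed it higher in 4A than in 2A by 1.13. LHCB4.3, the LHCB4 copy also known as LHCB8, lay at -2.41 in 4A, 0.66 in 3A and -3.94 in 2A relative to 1A, and was listed higher in 4A than in 2A by 1.54 in the authors' deposited table. Both had their lowest level in 2A, whereas LHCB4.1, LHCB4.2, LHCB5 and LHCB6 were lowest in 4A, although none of those 4 was listed between 4A and 2A. LHCB2.3 was lower in 2A than in 1A, at -3.16 in the authors' deposited table, and its listings of 4A below 1A and 3A rested on whole-number folds. LHCB1.4 was listed only as lower in 4A than in 1A, with a whole-number fold, and LHCB7, a rare antenna protein of unsettled place, was not listed anywhere.

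Copies of one antenna protein have similar sequences, and reads that map to more than 1 copy can be split between them. The coding sequences of the 5 LHCB1 genes were identical at 87.4% to 96.4% of aligned bases, those of the 3 LHCB2 genes at 84.5% to 92.9% and those of the 3 LHCB4 genes at 72.9% to 81.9%. The listed fold of 2A over 1A ranged from -5.76 for LHCB1.1 to -3.65 for LHCB1.2 in the authors' deposited table, although these copies share 95.6% of aligned bases. No source used here says how reads of such copies were assigned, so differences between copies are uncertain.

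**Figure D2:**
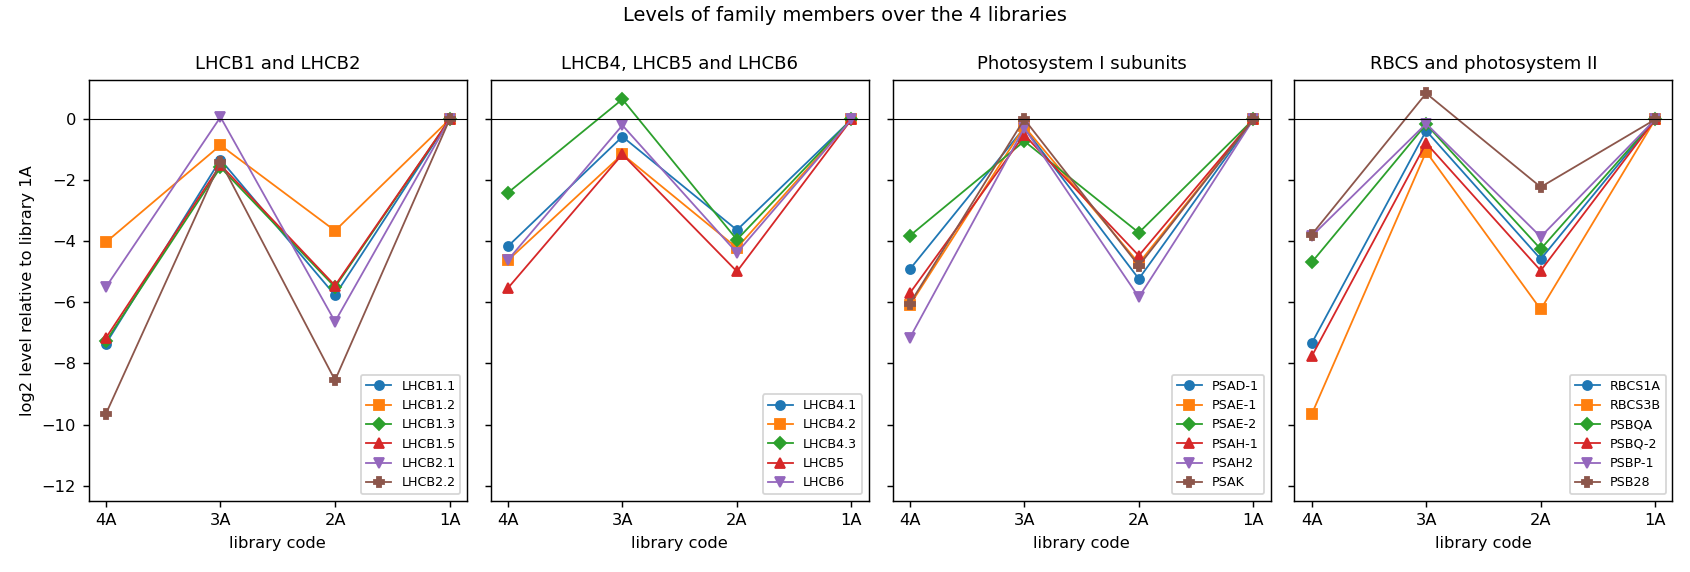
Log2 levels relative to library 1A (y axis) in the libraries 4A, 3A, 2A and 1A (x axis) for 23 members without whole-number folds, with 1 line per gene joining its 4 libraries. Levels from the authors' deposited tables lie between -9.67 and -2.22 in 4A and 2A and between -1.57 and 0.85 in 3A; LHCB2.1, LHCB4.3, PSAD-1 and PSBP-1 are lower in 2A than in 4A and the others lower in 4A.

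Photosystem I subunits encoded in the nucleus include PSAD and PSAE, which form the stromal face where ferredoxin docks, PSAF on the plastocyanin side, and PSAH, PSAL, PSAO and PSAK at the antenna contacts. All 11 members of this class were listed lower in 2A than in 1A and in 4A than in 3A, beside 24.5% and 35.6% of all genes. Without whole-number folds, their 4A over 3A folds ran from -6.89 for PSAH2 to -2.999 for PSAD-2 in the authors' deposited table, with a median of -5.02. PSAK lay at -6.04 in 4A, 0.01 in 3A and -4.80 in 2A relative to 1A, from the authors' deposited tables, where the 3A value is completed. PSAE-1 lay at -6.09 in 4A, -0.23 in 3A and -4.72 in 2A relative to 1A, from the authors' deposited tables, against -3.82, -0.71 and -3.71 in those libraries for its copy PSAE-2, which shares 79.5% of aligned coding bases. No photosystem I member was listed between 3A and 1A.

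Between 4A and 2A, 4 photosystem I genes were listed lower in 4A, namely PSAE-1, PSAH-1, PSAK and PSAO. Their log2 folds in the authors' deposited table lay between -1.38 and -1.01. PSAD-2 was listed higher in 4A than in 2A and lower in 2A than in 1A, with whole-number folds in both. Its copy PSAD-1 lay at -4.92 in 4A, -0.28 in 3A and -5.23 in 2A relative to 1A, from the authors' deposited tables, and the copies share 88.0% of aligned coding bases. AT1G49975 was listed lower in both 2A and 4A with whole-number folds.

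The photosystem II class held extrinsic subunits of the water-splitting side (PSBP-1, PSBQA and PSBQ-2), the small subunit PSBX, the assembly factor PSB28, and NPQ4, the PsbS protein that triggers heat dissipation of excess light. It also held PSBP-2, a copy of PSBP-1 with a shorter annotated coding sequence, 378 bases against 792. All 7 were listed lower in 2A than in 1A and in 4A than in 3A, beside 24.5% and 35.6% of all genes. PSBQ-2 lay at -7.77 in 4A, -0.78 in 3A and -4.96 in 2A relative to 1A, and its copy PSBQA at -4.69 in 4A, -0.16 in 3A and -4.25 in 2A, from the authors' deposited tables. The authors' deposited table listed PSBQ-2 lower in 4A than in 2A, at -2.81, and PSBQA was not listed there. PSB28 lay at -3.78 in 4A, 0.85 in 3A and -2.22 in 2A relative to 1A, from the authors' deposited tables. NPQ4 lay at -5.28 in 4A, 0.61 in 3A and -4.34 in 2A relative to 1A, from the authors' deposited tables. PSBP-2 was the one member of the class listed lower in 3A than in 1A, at -1.75 in the authors' deposited table, and its 4A over 3A fold of -2.83 was the smallest of the class.

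The PsbP and PsbQ relatives, the NDH complex and assembly factors formed a class of 17. The NDH complex carries cyclic electrons around photosystem I, and several PsbP-like and PsbQ-like proteins are its lumenal subunits. In this class 8 were listed lower in 2A than in 1A (median -2.31 from the authors' deposited table) and 10 lower in 4A than in 3A, with none higher in either. The shares listed lower were 47.1% and 58.8%, beside 24.5% and 35.6% of all genes. PAM68, an assembly factor of photosystem II, lay at -6.02 in 4A, -0.49 in 3A and -3.50 in 2A relative to 1A, from the authors' deposited tables. AT3G63540 lay at -5.69 in 4A, -0.92 in 3A and -4.52 in 2A relative to 1A, and PPL1, a PsbP-like protein, at -4.23, -0.47 and -2.63 in the same libraries, from the authors' deposited tables. These 3 had the largest folds of the class in both comparisons, whole-number folds aside. PnsL1, a lumenal NDH subunit, lay at -2.87 in 4A, -0.01 in 3A and -2.24 in 2A relative to 1A, and PPD1 at -1.94, -0.19 and -1.77, from the authors' deposited tables. AT1G76450 lay at -2.75 in 4A, -0.85 in 3A and -2.38 in 2A relative to 1A, from the authors' deposited tables. The smallest listed folds of 4A over 3A were those of PPD6, PPD5 and AT1G77090, at -1.18, -1.37 and -1.50 in the authors' deposited table. AT2G28605 was listed only as lower in 2A than in 1A, at -1.39 in the authors' deposited table, and CRR1, an NDH assembly factor, only as lower in 4A than in 3A with a whole-number fold. Not listed in any comparison were PnsL2, PnsL3, PQL3, APO1, AT3G05410 and AT5G27390.

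Fewer members of the electron transport and redox class of 9 were listed. FNR1, the leaf ferredoxin-NADP reductase, lay at -2.92 in 4A, -0.33 in 3A and -3.16 in 2A relative to 1A, from the authors' deposited tables. PGRL1A, needed for cyclic electron flow, lay at -2.35 in 4A, -0.01 in 3A and -1.79 in 2A relative to 1A, from the authors' deposited tables. STN7, the kinase that phosphorylates LHCB proteins, was lower in 2A than in 1A, at -1.27, and higher in 4A than in 2A by 1.17 in the authors' deposited tables, which left it at -0.10 in 4A relative to 1A. These 3 genes were the only members of the class listed in 2A over 1A. The share listed lower was 33.3% there and 44.4% in 4A over 3A, beside 24.5% and 35.6% of all genes.

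The other listed members of that class were not listed in 2A over 1A. RFNR2, the root-type ferredoxin-NADP reductase, was listed higher in 3A than in 1A by 1.35 and lower in 4A than in 3A, at -1.08 in the authors' deposited tables. AT2G45870, a bestrophin-like protein, was listed higher in 3A than in 1A by 1.31 and in 4A than in 1A by 1.27 in the authors' deposited tables. FTRA1, a subunit of ferredoxin-thioredoxin reductase, was listed lower in 4A than in 3A, at -1.24, and than in 2A, at -1.01 in the authors' deposited tables. FTRA2, ACHT1 and AT3G61320 were not listed.

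In carbon fixation and sugar phosphates, 4 of 8 members were listed lower in 2A than in 1A and none higher (all genes 24.5% and 28.8%). RBCS genes encode the small subunit of Rubisco, the enzyme that fixes carbon dioxide. RBCS3B lay at -9.67 in 4A, -1.06 in 3A and -6.23 in 2A relative to 1A, from the authors' deposited tables, and was listed in all 6 comparisons. RBCS1A lay at -7.34 in 4A, -0.37 in 3A and -4.58 in 2A relative to 1A, from the authors' deposited tables. Both had lower values in 4A than in 2A, at -3.44 for RBCS3B and -2.76 for RBCS1A in the authors' deposited table, where the median of the members listed was -1.24. RBCS1B was lower in 2A than in 1A, at -3.19 in the authors' deposited table, and was listed lower in 4A than in 1A and 3A with whole-number folds. RBCS2B was not listed, and the 4 RBCS coding sequences were identical at 90.4% to 97.3% of aligned bases, so reads of these copies may not have been separable.

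GPT2, a plastid carrier that exchanges glucose 6-phosphate and phosphate, had the same order of libraries as LHCB2.2 but a lower level in 3A. It lay at -8.72 in 4A, -3.98 in 3A and -7.72 in 2A relative to 1A, from the authors' deposited tables. The completed GPT2 fold of 4A over 2A was itself a whole number. Its low levels in 2A and 4A may thus rest on very small values, and their size is uncertain. The GPT2 fold of 3A over 1A was the largest in size of all members in that comparison, where the other 10 members listed lower lay between -1.75 and -1.06 in the authors' deposited table. FBP, the cytosolic fructose-1,6-bisphosphatase of sucrose synthesis, was listed higher in 4A than in 3A by 1.05 and than in 2A by 1.08 in the authors' deposited tables. NARA5, needed for Rubisco accumulation, was listed only as lower in 4A than in 1A, at -1.16 in the authors' deposited table, and AT1G12000 was not listed.

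Of 10 members of pigment and isoprenoid synthesis, 7 were listed lower and 1 higher in 2A than in 1A (all genes 24.5% and 28.8%). In 4A, 6 of these members were lower and 1 higher than in 3A (all genes 35.6% and 19.6%). Their medians from the authors' deposited tables were -2.31 and -2.40, against -4.98 and -4.67 for the LHCB genes. CHLI1, CHLI2 and CHLD encode subunits of magnesium chelatase, the entry step to chlorophyll. CHLI2 lay at -4.90 in 4A, -0.46 in 3A and -4.14 in 2A relative to 1A, against -1.79, 0.15 and -2.03 in those libraries for CHLI1, while CHLD was listed only in 2A over 1A, at -1.01 in the authors' deposited table. CRD1, a subunit of the cyclase that closes the fifth ring of chlorophyll, lay at -3.82 in 4A, -0.08 in 3A and -3.94 in 2A relative to 1A, from the authors' deposited tables. AT1G74470, geranylgeranyl reductase, which makes the phytol tail of chlorophyll, lay at -3.70 in 4A, -0.30 in 3A and -3.26 in 2A relative to 1A, from the authors' deposited tables. LIL3:2, a light-harvesting-like protein that anchors this reductase, lay at -2.03 in 4A, -0.58 in 3A and -1.58 in 2A relative to 1A, from the authors' deposited tables. LUT2, the lycopene epsilon-cyclase of lutein synthesis, lay at -1.70 in 4A, 0.69 in 3A and -2.60 in 2A relative to 1A, from the authors' deposited tables.

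The solanesyl diphosphate synthases SPS1 and SPS2 make the side chain of plastoquinone. SPS2 was the one member listed higher in both 2A over 1A and 4A over 3A, at 1.16 and 1.12 in the authors' deposited tables, and it lay at 1.79 in 4A relative to 1A. SPS1 was listed only as higher in 3A than in 2A, by 1.29 in the authors' deposited table. IPP1, an isopentenyl diphosphate isomerase, was not listed.

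Of 15 other plastid proteins, 4 were listed lower and 1 higher in 2A than in 1A, and 6 lower and none higher in 4A than in 3A. The shares listed lower, 26.7% and 40.0%, were near the 24.5% and 35.6% of all genes. Fewer were listed higher in 2A than in 1A, 6.67% against 28.8% of all genes. The ferritin FER1, an iron store, lay at -2.06 in 4A, -0.62 in 3A and -1.89 in 2A relative to 1A, from the authors' deposited tables. FER3 and FER4 were not listed in 2A over 1A but were lower in 4A than in 3A, at -1.12 and -1.02 in the authors' deposited table. SIGC, a sigma factor of the plastid RNA polymerase, lay at -1.24 in 4A, 0.44 in 3A and -1.49 in 2A relative to 1A, and ZKT, a thylakoid protein, at -2.03, 0.64 and -2.07, from the authors' deposited tables. SEP2 of locus AT2G21970, a stress-enhanced protein of the LHC superfamily, lay at -1.96 in 4A, -0.31 in 3A and -1.39 in 2A relative to 1A, from the authors' deposited tables. SECA2, a plastid protein translocase subunit, was listed higher in 3A than in 1A by 1.46 and in 4A than in 2A by 1.35 in the authors' deposited tables. CS26, a plastid S-sulfocysteine synthase, was listed higher in 2A than in 1A by 1.203 and in 3A than in 1A by 1.22 in the authors' deposited tables. AGY1, the SecA1 translocase, was listed only as higher in 3A than in 2A, by 1.16 in the authors' deposited table. CLPP6, RSH1, RSH2, RSH3 of locus AT1G54130, PDE327 and ACDO1 were not listed.

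The last 10 members have another role or none annotated. STZ, a stress-responsive zinc finger factor, was listed higher in 2A than in 1A by 1.02 and lower in 4A than in 2A, at -1.01 in the authors' deposited tables. AIRP2, a RING protein of abscisic acid signalling, lay at -2.90 in 4A, 0.55 in 3A and -1.27 in 2A relative to 1A, from the authors' deposited tables. SEPALLATA2, a flower development factor, shares the symbol SEP2 with the stress-enhanced protein, and RHS3, root hair specific 3, shares the synonym RSH3 with the RELA/SPOT homolog. SEPALLATA2 was listed lower in 2A and 4A than in 1A with whole-number folds, and RHS3 was not listed. Also unlisted were AT3G09490, AT2G07738, AT2G00750, AT5G07885 and AT2G08665. AT1G05207, a long non-coding RNA gene antisense to LHCB6, was listed lower in 2A than in 1A, at -3.12 in the authors' deposited table. No source used here says whether counting used strand, so its reads cannot be told apart from those of LHCB6. Of all members, 48 overlap another annotated gene, 41 of them a gene on the opposite strand, SPS2 and SECA2 among them, and the same limit holds for these.

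The antenna and photosystem members stood lower than the rest of the list. The 39 antenna and photosystem members had 36 listed lower in 2A than in 1A and 37 lower in 4A than in 3A, with none higher in either. Their medians were -4.70 and -4.67, computed from the authors' deposited tables. The 69 other members had 29 listed lower and 3 higher in 2A than in 1A, with a median of -2.15, and 31 lower and 2 higher in 4A than in 3A, with a median of -2.35 from the authors' deposited tables. Their shares listed lower were 42.0% and 44.9%, beside 24.5% and 35.6% of all genes. Of the 11 members listed lower in 3A than in 1A, 9 were antenna or photosystem genes, and the 4 listed higher were RFNR2, AT2G45870, SECA2 and CS26.

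The folds of 2A over 1A and 4A over 3A, which share no library, were also compared in size. The difference of log2 folds, 4A over 3A minus 2A over 1A, could be formed for 59 members without whole-number folds and had a median of -0.12, computed from the authors' deposited tables. It was below -1 for 12 members, which is 20.3%, and above 1 for 4. Over all 5341 genes with such a difference the median from the authors' deposited tables was -0.66 and 43.8% lay below -1. PSB28, RBCS1A and RBCS3B had the largest negative differences, between -2.42 and -2.38 from the authors' deposited tables. GPT2 and PSBP-2 had the largest positive ones, at 2.98 and 2.09 from the authors' deposited tables. Both were among the 11 members listed lower in 3A than in 1A. The size of the GPT2 difference is uncertain because its levels in 2A and 4A are.

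**Figure D3:**
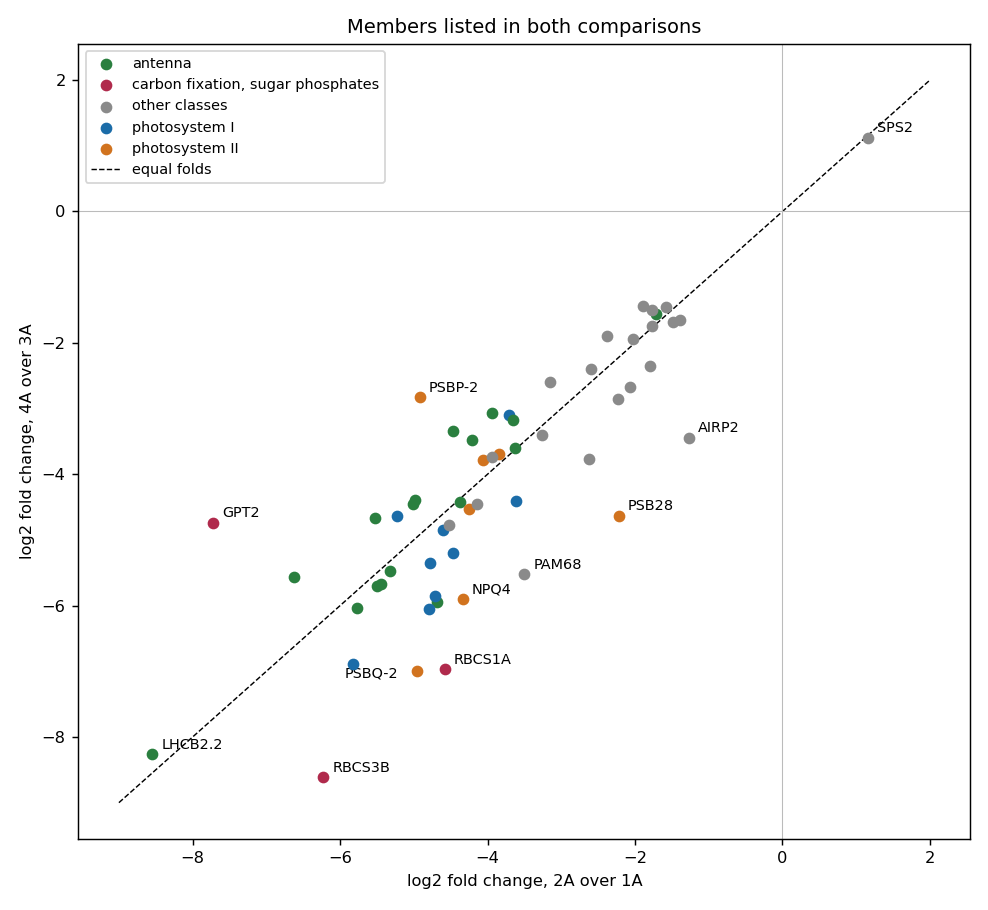
Log2 fold change of 4A over 3A (y axis) against that of 2A over 1A (x axis) for members listed in both without a whole-number fold, coloured by role, with a dashed line of equal folds. All points but SPS2 lie below 0 on both axes, LHCB2.2 and RBCS3B farthest from 0, and RBCS1A, RBCS3B, PSBQ-2, PSB28, PAM68 and AIRP2 lie below the line while GPT2 and PSBP-2 lie above it.

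Photosynthesis genes outside the authors' list were compared from textbook lists of 83 nuclear genes, of which 43 were on the list and 40 were not. Of these 40 genes, 35 were listed lower in 2A than in 1A (all genes 24.5%) and 34 lower in 4A than in 3A (all genes 35.6%), with none higher in either. The medians were -3.65 and -3.64 from the authors' deposited tables, against -4.58 and -4.76 for the 43 genes on the list. PSAG of photosystem I and PSBTN of photosystem II were lower in 2A than in 1A, at -4.85 and -4.90 in the authors' deposited table. PETE1, one of the plastocyanins, was lower, at -5.03 there, and PETC, the Rieske protein of cytochrome b6f, at -2.86 in the authors' deposited table. ATPC1, a subunit of the ATP synthase, was lower, at -4.05 in the authors' deposited table. All 12 electron transport and ATP synthase genes outside the list were listed lower in 2A than in 1A.

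The Calvin cycle outside the list moved in the same direction where it was listed. Of 19 such genes, 14 were listed lower in 2A than in 1A (all genes 24.5%) and 14 lower in 4A than in 3A (all genes 35.6%), and none higher. FBA2, a plastid aldolase, was lower in 4A than in 3A, at -7.55, and PRK, phosphoribulokinase, at -6.90 in the authors' deposited table. FBA2 and PRK were also lower in 4A than in 2A, at -2.96 and -2.79 in the authors' deposited table, close to RBCS1A at -2.76. RCA, the activase of Rubisco, was lower in 2A than in 1A, at -2.78, and in 4A than in 3A, at -2.18 in the authors' deposited tables. PGK2, FBA3, TKL1, TKL2 and CP12-3 were not listed.

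**Figure D4:**
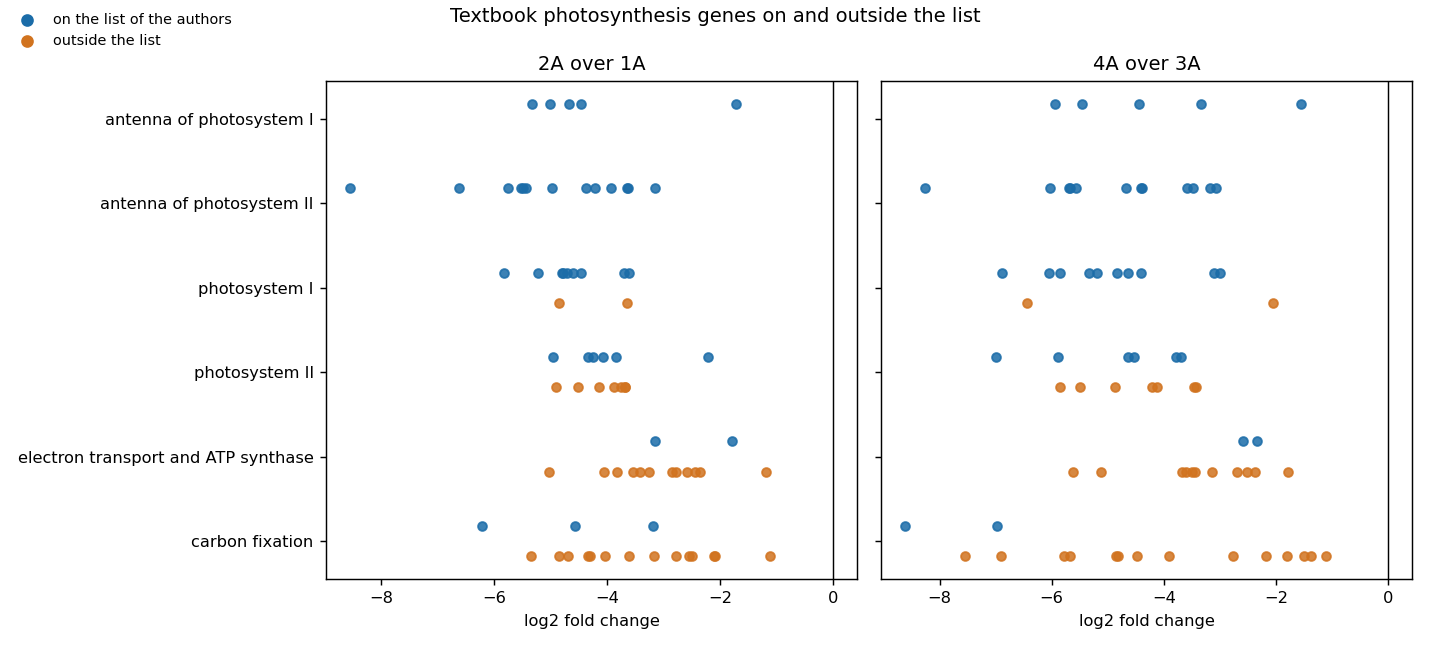
Log2 fold changes (x axis) of textbook photosynthesis genes by role (y axis) in 2A over 1A and in 4A over 3A, with genes on the authors' list in blue above genes outside it in orange, without whole-number folds. Every listed gene of both kinds lies below 0, and those outside the list reach -5.36 in 2A over 1A and -7.55 in 4A over 3A in the authors' deposited tables.

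Markers of root cells were high where the photosynthesis genes were low. The 6 root meristem markers, WOX5, PLT1, PLT2, SHR, SCR and BBM, were all listed higher in 2A than in 1A (all genes 28.8%). Of the 6, 5 were listed higher in 4A than in 3A (all genes 19.6%). SHR was not listed in 4A over 3A and was lower in 4A than in 2A, at -2.63 in the authors' deposited table. All 6 were also listed higher in 3A than in 1A (all genes 21.3%), where few photosynthesis genes were listed. The folds of PLT1, PLT2 and BBM over 1A were whole numbers, so only their direction is used. WOX5, of the root's quiescent centre, was higher in 2A than in 1A by 5.91 and in 4A than in 3A by 3.35 in the authors' deposited tables. RHD6, a root hair factor, was higher by 7.11 and 4.71 in the same comparisons in the authors' deposited tables. Of the 6 shoot meristem and leaf markers, STM, CUC1, CUC2 and AS1 were listed higher in 2A and in 3A than in 1A, and YAB1 and YAB3 were not listed. The fold of CUC2 in 3A over 1A was a whole number. In 4A over 3A, STM and CUC1 were listed lower, at -1.43 and -3.48, and CUC2 higher, at 1.53, in the authors' deposited table, and AS1 was not listed. The stomata markers SPCH, MUTE, FAMA and TMM were not listed in any comparison. The part of cell type composition in the lower photosynthesis genes was not tested. In bulk RNA, fewer green cells and less photosynthesis RNA per cell cannot be told apart.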

How the data were processed

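RNA was sequenced from pooled calli of 4 groups, 1 sample each. Bowtie, Bowtie2 2.2.5, HISAT, Cufflinks and StringTie 1.0.4 and the build TAIR10 appear in the submitters' processing notes without a stated role. The authors deposited 6 workbooks of pairwise comparisons. Per the file headers, a log2 fold change there sets the later code over the earlier one. The FDR beside it, a corrected p-value, was deposited by the authors. No source used here gives the test behind it or the strand setting. A further 36 columns of per-library values were not used, since their codes match no sample label, so depth and counting intervals are not given.

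Members came from the authors' photosynthesis column. Each was given to 1 of 10 role classes from symbols and RefSeq descriptions, after folds had been displayed. The members and all lists were chosen with earlier results of these data known. Counts, medians and completed folds (the sum or difference of 2 deposited log2 folds) were computed without a test, because each library stands alone. The step that completes folds was run on simulated levels, which checks its arithmetic only and not the deposited folds. In each class up to 4 members with the largest and up to 3 with the smallest folds, members against their class's direction and members not listed in 2A over 1A or 4A over 3A are named, and up to 4 genes of each textbook list; others named (among them RCA, PETC, STN7, STM and the remaining markers) were chosen after their values were seen. Identifiers matched the TAIR10.1 reference, which also gave coordinates, windows of 250 bases before each gene and aligned longest coding sequences, with identity counted over ungapped columns. The choice of windows shown and the identity measure were set after values were seen. Alternatives were a log2 limit of 2, an FDR limit of 1e-10, leaving out whole-number folds or near-identical copies, textbook lists, completed folds and, chosen after seeing the data, leaving out members that overlap another gene. Python 3.11.15, NumPy 2.4.6, pandas 2.3.3, Biopython 1.88 and Matplotlib 3.10.9 were used.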

Additional observations from a re-analysis of the deposited data

How the results depend on the processing

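With 1 pooled library a side there is no spread, no test and no known depth, and absence from a table does not show equal levels. No paired analysis was possible because each group has 1 sample, no test was made and the codes are not tied to samples. Of 160 recomputed values, 116 kept their direction and stayed close to the reported value, 42 moved further and 2 turned sign. Close meant within 1.5 times for a count. For a median log2 fold, close meant a change of at most 1.5 times in the ratio before taking the log. The large counts (members lower in 2A and 4A than in 1A, lower in 4A than in 3A, higher in 3A than in 2A) and their medians kept their direction under every alternative.

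With a log2 limit of 2, no member was higher in 2A, 3A or 4A than in 1A or in 4A than in 3A (0 each), 1 was lower in 3A than in 1A, and 3 were lower and 1 higher in 4A than in 2A; the medians became -3.98 for 3A over 1A, -2.79 for 4A over 2A and -4.64 for 4A over 3A. With the FDR limit, 2 members were higher in 3A than in 1A, and 7 were lower and 2 higher in 4A than in 2A. Without the LHCB1, LHCB2 and RBCS copies, 6 members were lower in 3A than in 1A. With completed folds, 24 members were lower in 4A than in 2A, and the medians were -0.32 for 3A over 1A and -0.44 for 4A over 2A; 2 of the folds added to that count, of RBCS1B and LHCB2.3, rest on whole-number folds, and the cause of the shift was not tested.

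With the textbook lists, no gene was higher in 2A, 3A or 4A than in 1A or in 4A than in 3A (0 each), 23 were lower and 3 higher in 4A than in 2A, and the median for 4A over 3A was -4.47. The class medians then were -1.56 for photosystem II in 4A over 2A; -3.01, -1.15, -3.35, 2.65, -1.02 and -3.14 for electron transport in 2A over 1A, 3A over 1A, 4A over 1A, 3A over 2A, 4A over 2A and 4A over 3A; and -3.62, -1.06, -5.26 and -4.82 for carbon fixation in 2A over 1A, 3A over 1A, 4A over 1A and 4A over 3A. The electron transport medians of 3A over 1A and 4A over 2A thereby turned from positive to negative; each rests on at most 3 genes, and the 2 sets hold different genes. Without members that overlap another gene, and so with fewer members, 34 were lower in 2A than in 1A, 34 lower and 1 higher in 4A than in 1A, 6 lower in 3A than in 1A, 33 higher in 3A than in 2A, and 35 lower and 1 higher in 4A than in 3A, with medians of -5.25 for 4A over 1A, which is itself the whole-number fold of SEPALLATA2 and so has no fixed size, and -4.58 for 4A over 3A.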

Other observations

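Photorespiration, which recycles the product of the oxygenase reaction of Rubisco through chloroplast, peroxisome and mitochondrion, was not on the authors' list. Of 14 textbook genes, 9 were listed lower and 2 higher in 2A than in 1A (all genes 24.5% and 28.8%). In 4A, 9 were lower and 1 higher than in 3A (all genes 35.6% and 19.6%). GDCH1 and GDCH3, both H-proteins of the mitochondrial glycine decarboxylase, were lower in 4A than in 3A, at -8.21 and -6.97, and in 4A than in 2A, at -4.67 and -3.42 in the authors' deposited tables. PGLP1, the phosphoglycolate phosphatase of the first step, was lower in 4A than in 3A, at -6.39, and SHM1, a mitochondrial serine hydroxymethyltransferase, at -4.74 in the authors' deposited table. GLYK, glycerate kinase of the last step, went the other way, at 2.05 in 2A over 1A and 1.82 in 4A over 3A in the authors' deposited tables. CAT2, a peroxisomal catalase, was higher in 2A than in 1A by 1.28 and in 3A than in 1A by 1.98 in the authors' deposited tables.

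Of 9 regulators of photosynthesis genes, GLK1, GLK2, GNC, HY5, SIG2 and GUN1 were not listed in any comparison. SIG1, a plastid sigma factor, was lower in 2A than in 1A, at -2.14, and in 4A than in 3A, at -1.74 in the authors' deposited tables. GNL, a GATA factor of greening, was listed only as lower in 3A than in 2A, at -2.85 in the authors' deposited table. SIG5, a stress-responsive sigma factor, was higher in 3A than in 1A by 1.49 and than in 2A by 1.33 in the authors' deposited tables. The root-type ferredoxin FD3 and reductase RFNR1 were listed higher in 2A than in 1A, by 1.07 and 1.18 in the authors' deposited table, whereas the leaf ferredoxins FD1 and FD2 were lower in that deposited table of the authors, at -1.19 and -2.58. FD3 was listed in no other comparison. RFNR1 was also higher in 3A and in 4A than in 1A, by 1.07 in each of the authors' deposited tables. The remaining root-type gene, RFNR2, was not listed in 2A over 1A and was lower in 4A than in 3A, at -1.08 in the authors' deposited table.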
